A study of Mus musculus with 9 samples.

Results

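The 10 genes described here encode transporters, secreted and cell-surface proteins and retinoic acid enzymes that are known from the meninges and their fibroblasts: Slc47a1, Fat2, Cpz, Gxylt2, Slc22a6, Slc6a13, Slc13a4, Ranbp3l, Crabp2 and Aldh1a2. They were chosen by gene name, with their levels in these libraries already known, and are 10 of 34745 genes in the deposited tables. Their sum was between 90.4 and 243 CPM, counts scaled to library size, in HBO libraries, between 93.9 and 149 CPM in SCI libraries, and between 7.10 and 20.0 CPM in sham libraries. Which contrast drew attention to them is not recorded, so every difference between groups below is a description of the chosen genes, with no test and no support drawn from it.

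RNA was sequenced from spinal cord of wild type C57BL/6 mice aged 7 to 9 weeks, on day 7. The HBO group had a spinal cord injury and hyperbaric oxygen, the SCI group had the injury without oxygen, and the sham group is labelled as not injured. Each group had 3 libraries, numbered 1 to 3, and the labels do not say whether these came from separate animals, so the p-values below speak of the spread among libraries and not of that among animals. The sources used here do not give the oxygen pressure, the number of sessions, or the level and force of the injury. Library totals were 12463783 to 14142161 counts in HBO, 13726337 to 15715484 in SCI and 11159587 to 13496372 in sham. The pooled tissue gives 1 value per gene and library, so more cells of a type and more RNA per cell cannot be told apart.

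The meninges wrap the spinal cord in a tough outer dura, an arachnoid barrier and a thin inner pia, and the arachnoid and pia together are the leptomeninges. Their fibroblasts carry transporters that move organic ions, amino acids and sulfate between blood, cerebrospinal fluid and tissue, and in the embryo the meninges are a source of retinoic acid, a vitamin A derivative that binds nuclear receptors. After spinal cord injury, fibroblasts of the meninges and of vessel walls contribute to a collagen-rich scar.

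The 10 genes lie on 7 chromosomes. In the deposited GRCm38 coordinates, Slc47a1 is at chr11:61343401-61378345 and Fat2 at chr11:55250609-55336564. On chromosome 6 lie Gxylt2 at chr6:100704734-100810913, Slc6a13 at chr6:121300227-121337733 and Slc13a4 at chr6:35267957-35308131. The others are Cpz at chr5:35502218-35525698, Slc22a6 at chr19:8617996-8628299, Ranbp3l at chr15:8968426-9066551, Crabp2 at chr3:87948666-87953376 and Aldh1a2 at chr9:71215789-71296243. All 10 are protein coding, and none shares exon bases with another annotated gene on either strand.

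Promoter sequences were matched for 8 of the 10 genes in the RefSeq table of GRCm38.p6, from 250 bases before to 50 bases after each start. Promoters of 4 genes with unlike base composition are printed 5′ to 3′ on the gene's strand, to show the sequence at their starts. Shared regulation of the 10 genes was not tested. Capitals mark GGCGCC, a motif of BMP Smads. The windows are chr9:71215539-71215838 (plus strand) for Aldh1a2, chr6:100704484-100704783 (plus) for Gxylt2, chr5:35525577-35525876 (minus) for Cpz and chr6:35308077-35308376 (minus) for Slc13a4.
Aldh1a2: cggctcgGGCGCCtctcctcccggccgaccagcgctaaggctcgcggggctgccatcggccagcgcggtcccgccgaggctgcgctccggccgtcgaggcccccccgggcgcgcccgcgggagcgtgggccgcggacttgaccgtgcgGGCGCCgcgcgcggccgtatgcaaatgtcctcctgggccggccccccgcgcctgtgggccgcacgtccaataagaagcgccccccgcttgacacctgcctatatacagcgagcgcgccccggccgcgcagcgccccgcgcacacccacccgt
Gxylt2: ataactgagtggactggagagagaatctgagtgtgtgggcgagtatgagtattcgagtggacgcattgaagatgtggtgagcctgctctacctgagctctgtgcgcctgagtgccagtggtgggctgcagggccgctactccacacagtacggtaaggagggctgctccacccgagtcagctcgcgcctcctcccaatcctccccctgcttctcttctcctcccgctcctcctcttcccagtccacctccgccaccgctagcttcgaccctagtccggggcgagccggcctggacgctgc
Cpz: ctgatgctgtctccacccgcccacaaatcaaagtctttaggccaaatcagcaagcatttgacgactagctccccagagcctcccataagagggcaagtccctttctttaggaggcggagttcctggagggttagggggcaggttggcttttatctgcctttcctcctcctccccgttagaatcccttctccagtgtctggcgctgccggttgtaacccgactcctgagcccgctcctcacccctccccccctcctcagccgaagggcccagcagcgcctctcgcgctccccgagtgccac
Slc13a4: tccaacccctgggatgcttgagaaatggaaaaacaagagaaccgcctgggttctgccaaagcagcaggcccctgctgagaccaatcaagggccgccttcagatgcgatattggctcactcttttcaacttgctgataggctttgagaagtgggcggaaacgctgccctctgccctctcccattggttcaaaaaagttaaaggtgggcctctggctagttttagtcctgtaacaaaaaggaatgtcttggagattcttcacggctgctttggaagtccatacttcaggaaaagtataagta
The Aldh1a2 window is 78.0% G or C with 50 CG dinucleotides, Gxylt2 62.0% with 17, Cpz 60.3% with 13 and Slc13a4 48.7% with 6, against medians of 52.7% and 7 over 32851 promoters. GGCGCC occurred at −243 and −102 from the Aldh1a2 start and in no other window of these genes, and 11.9% of all promoters hold it. AGGTCA, a site unit of nuclear receptors, occurred at −31 of Fat2, whose RefSeq start lies inside the deposited gene, and in 1 of 3 Slc6a13 windows, and 16.3% of all promoters hold it. CAGCTG, an E-box, occurred in 1 of 3 Slc6a13 windows (16.3% of all promoters), and GTAAACA, a forkhead motif, in none (3.65%). The Slc6a13 windows with a match also lie inside the deposited gene, and the window that spans its deposited start held no match. Both strands were searched, GGCGCC and CAGCTG read the same on both, and no window of these genes held overlapping matches.

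Slc47a1 encodes MATE1, an exporter of organic cations best known from kidney and liver. It was at 8.70, 44.2 and 3.89 CPM in HBO replicates 1, 2 and 3, at 14.1, 13.8 and 7.42 CPM in SCI replicates and at 0.239, 0.352 and 0.666 CPM in sham replicates. Every injured library was above every sham library, and HBO replicate 2 was far above the rest. The log2 fold change was 4.76 ± 0.98 (SE) for SCI over sham and 5.44 ± 0.97 for HBO over sham, or 3.86 for HBO over sham without HBO replicate 2.

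Slc22a6 encodes OAT1, an organic anion transporter of the kidney. It had 1.20, 1.94 and 0.496 CPM in HBO replicates, 0.979, 1.18 and 1.51 CPM in SCI replicates and no count in any sham library. All 6 injured libraries held a few reads, 48 in HBO and 53 in SCI. Set against a floor of 3 counts over the sham group, it was at least 15.3-fold higher in HBO and at least 15.1-fold higher in SCI.

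Slc6a13 encodes GAT2, a transporter of GABA and taurine found in the meninges of mouse brain. Its levels were 21.2, 33.8 and 14.1 CPM in HBO, 26.2, 23.1 and 17.9 CPM in SCI and 2.79, 1.58 and 6.00 CPM in sham. The injured groups overlapped each other, and sham replicate 3 was the highest of its group. The log2 fold changes were 2.67 ± 0.44 for SCI over sham and 2.71 ± 0.44 for HBO over sham, and without sham replicate 3 they were 3.34 and 3.38.

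Slc13a4 encodes a sodium-coupled sulfate transporter. It had 8.56, 15.2 and 8.68 CPM in HBO, 9.85, 9.84 and 9.36 CPM in SCI and 0.239, 0.264 and 2.52 CPM in sham. The SCI libraries were nearly level, and sham replicate 3 was far above the other sham libraries. The log2 fold changes of 3.20 ± 0.60 (SCI over sham) and 3.36 ± 0.61 (HBO over sham) were 5.22 and 5.37 without that library.

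Fat2 encodes a very large cadherin of the Fat family. It was at 3.61, 15.4 and 3.14 CPM in HBO and at 2.35, 6.52 and 1.87 CPM in SCI, against no count in sham replicates 1 and 2 and 0.444 CPM in sham replicate 3. Both injured groups held 1 library well above the other two, replicate 2 in each. The log2 fold changes were 4.42 ± 1.11 for SCI over sham, or 3.66 without SCI replicate 2, and 5.46 ± 1.07 for HBO over sham, or 4.33 without HBO replicate 2. Without sham replicate 3 no fold can be given, since the other sham libraries were at 0.

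Cpz encodes carboxypeptidase Z, a secreted enzyme with a domain like that of the Wnt receptor Frizzled. It had 3.25, 17.0 and 3.56 CPM in HBO, 3.85, 4.92 and 2.66 CPM in SCI and, in sham, 0, 0 and 0.148 CPM, which is 2 counts in all. HBO replicate 2 again stood above every other library. The ratio of summed counts to sham, scaled for depth, was 147 (95% counting interval 40.4 to 1220) for HBO and 71.6 (19.5 to 596) for SCI. Without HBO replicate 2 the ratio for HBO was 63.5 (17.1 to 532), and without sham replicate 3 no fold can be given.

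Gxylt2 encodes a xylosyltransferase that extends O-linked glucose on the EGF repeats of Notch. Its levels were 19.8, 62.7 and 34.1 CPM in HBO, 41.0, 30.7 and 22.1 CPM in SCI and 0.798, 0.880 and 1.26 CPM in sham. The sham libraries lay close together and far below the lowest injured library. The log2 fold changes were 4.97 ± 0.49 for SCI over sham and 5.29 ± 0.49 for HBO over sham.

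Ranbp3l encodes a Ran-binding protein that exports BMP Smads from the nucleus. It was at 4.31, 6.89 and 3.89 CPM in HBO, 4.89, 5.75 and 4.97 CPM in SCI and 0.319, 1.06 and 1.11 CPM in sham. The injured libraries spanned a 1.77-fold range, as did those of Slc13a4, the narrowest of the 10 genes. The log2 fold changes were 2.64 ± 0.39 for SCI over sham and 2.59 ± 0.39 for HBO over sham.

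Crabp2 encodes a carrier that hands retinoic acid to nuclear receptors. It was at 3.96, 11.9 and 4.05 CPM in HBO, 8.09, 8.11 and 3.46 CPM in SCI and 0.160, 0.352 and 0.740 CPM in sham. HBO replicates 1 and 3 lay below the 2 higher SCI libraries, and HBO replicate 2 above them. The log2 fold change of 3.92 ± 0.65 for SCI over sham was 4.65 without sham replicate 3. That of 3.94 ± 0.65 for HBO over sham was 4.67 without sham replicate 3 and 3.21 without HBO replicate 2.

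Aldh1a2 encodes the enzyme that makes retinoic acid from retinaldehyde, long used as a meningeal marker in the mouse embryo. Its levels were 15.8, 33.7 and 16.9 CPM in HBO, 38.1, 26.9 and 22.6 CPM in SCI and 2.55, 2.99 and 7.11 CPM in sham. It was the 1 gene of the 10 with its highest injured value outside HBO replicate 2. The log2 fold changes of 2.78 ± 0.42 (SCI over sham) and 2.38 ± 0.42 (HBO over sham) were 3.39 and 2.99 without sham replicate 3.

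**Figure D1:**
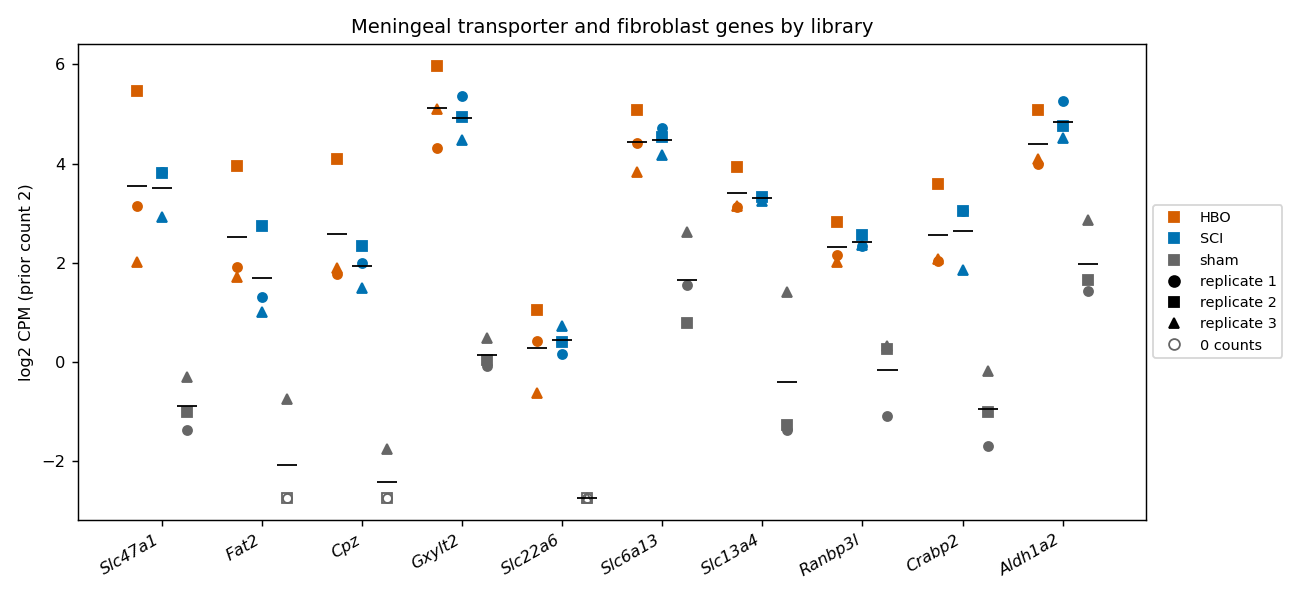
Level of each gene in each library on a log2 CPM axis (prior count 2), HBO, SCI and sham from left to right, with replicates by marker shape, group means as bars and libraries with 0 counts as open markers. All injured libraries lie above all sham libraries for each of the 10 genes, and HBO replicate 2 is the highest injured library for 9 of them.

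All 10 genes passed the edgeR quasi-likelihood test with Benjamini-Hochberg adjustment (adjusted p under 0.05) as higher in SCI than sham, where 20.0% of 17901 tested genes were called higher and 16.6% lower. The groups did not overlap for any of the 10, and every SCI library was above every sham library for 27.6% of all genes. In HBO against sham 10 of 10 were also called higher, beside 17.4% called higher and 13.5% lower among all genes, and again no groups overlapped, as for 24.2% of all genes. Both comparisons share the sham libraries, and since the genes were chosen with these values known, nothing is read from the counts.

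Their median log2 fold change was 4.17 for SCI over sham and 4.61 for HBO over sham, or 3.92 and 3.94 with Slc22a6 at its lower bound, beside a median of 0.0 over all genes in both. The smallest changes of the 10 were those of Ranbp3l in SCI and Aldh1a2 in HBO, and 2.08% and 2.48% of all genes changed upward by at least as much. Sham replicate 3 and HBO replicate 2 held the highest levels of most of these genes in their groups. Without both, a setting chosen after seeing the data, 10 of 10 were called in each comparison with sham. Over all genes 5801 were then called in SCI and 2519 in HBO against sham. Nothing is read from this count of chosen genes either.

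Per transcript length, the order of the levels in injured cord was led by Aldh1a2, at 9.78 ± 4.62 FPKM (SD, n = 3, fragments per length and depth) in HBO, 12.8 ± 3.25 FPKM in SCI and 1.87 ± 1.11 FPKM in sham. Slc6a13 came next at 6.90 ± 3.14 FPKM in HBO, 6.67 ± 1.14 FPKM in SCI and 1.04 ± 0.680 FPKM in sham. Gxylt2 and Crabp2 changed places between the injured groups, with Gxylt2 at 4.38 ± 2.54 FPKM and Crabp2 at 4.20 ± 2.97 FPKM in HBO, and 3.50 ± 0.991 FPKM and 4.10 ± 1.65 FPKM in SCI. In each injured group the distance between these 2 genes was smaller than either SD.

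Slc47a1 had 4.02 ± 4.72 FPKM in HBO and 2.46 ± 0.764 FPKM in SCI, and in HBO its SD exceeded its mean. Ranbp3l, Slc13a4 and Cpz lay between 1.66 and 3.08 FPKM in HBO and between 1.47 and 1.71 FPKM in SCI, where they did not differ beyond the SD of Cpz. Fat2 (0.453 FPKM in HBO, 0.218 FPKM in SCI) and Slc22a6 (0.302 FPKM in HBO, 0.304 FPKM in SCI) were lowest. In sham libraries Ranbp3l came next after these 2 leaders at 0.275 ± 0.148 FPKM, while Gxylt2 was at 0.111 ± 0.0276 FPKM and Cpz and Fat2 were at 0.0191 and 0.00903 FPKM.

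**Figure D2:**
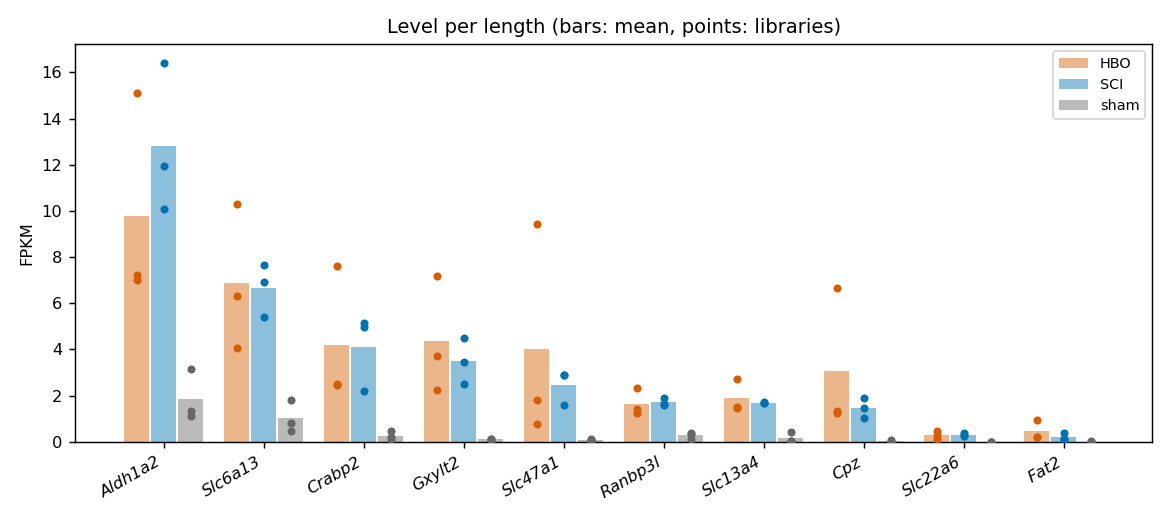
Level per length of each gene in FPKM, ordered by the SCI mean, with HBO, SCI and sham from left to right, bars for group means and points for libraries. Aldh1a2 and Slc6a13 lead in all 3 groups, and 1 HBO library lies well above the rest of its group for several genes, among them Slc47a1, Cpz, Fat2 and Crabp2.

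Hyperbaric oxygen was compared with injury alone. None of the 10 genes passed the test in HBO against SCI (lowest adjusted p = 0.959 by edgeR), 0 had an unadjusted p under 0.05 and 0 were called by DESeq2. Among all 17901 genes edgeR called 0.0%, and 4.18% had an unadjusted p under 0.05, while DESeq2 called 26 genes. No gene of the 10 had every HBO library above every SCI library, as 3.96% of all genes did, and none had every HBO library below every SCI library, as 4.07% did.

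Of the 10 log2 fold changes of HBO over SCI, 7 were positive and 3 negative. The widest were 1.05 ± 0.60 for Cpz, 1.04 ± 0.71 for Fat2 and 0.68 ± 0.68 for Slc47a1, and the lowest was −0.40 ± 0.38 for Aldh1a2. The other 6 lay between −0.05 and 0.31.

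The positive signs rested on 1 library. HBO replicate 2 was the highest of the 6 injured libraries for 9 of the 10 genes. It was at 5.08 times the median of the other injured libraries for Slc47a1, 4.90 times for Fat2 and 4.77 times for Cpz. For Crabp2 it was at 2.94 times and for Gxylt2 at 2.04 times this median. For Slc6a13, Slc13a4, Ranbp3l, Slc22a6 and Aldh1a2 it was between 1.41 and 1.64 times. Without it all 10 log2 fold changes were negative, with −0.90 ± 0.40 for Slc47a1, −0.84 ± 0.37 for Aldh1a2, −0.71 ± 0.43 for Crabp2, −0.17 ± 0.40 for Cpz and −0.08 ± 0.65 for Fat2. Aldh1a2 then had an unadjusted p under 0.05 and an adjusted p of 0.601, so no gene passed in that setting either.

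**Figure D3:**
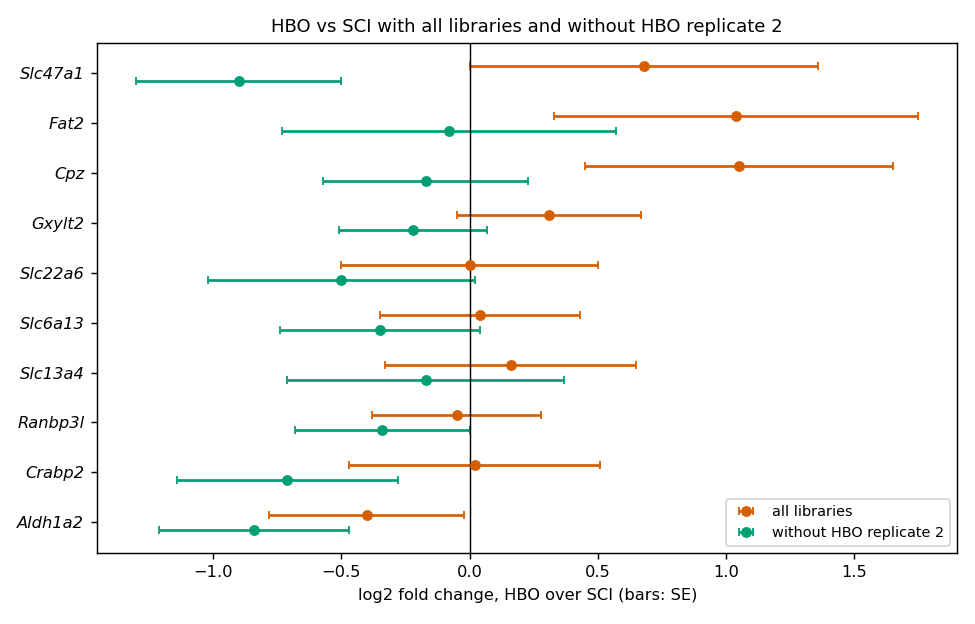
Log2 fold change of HBO over SCI for each gene with its SE, with all libraries (upper point of each pair) and without HBO replicate 2 (lower point). With all libraries 7 of 10 values are positive, and without HBO replicate 2 all 10 lie to the left of 0.

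The spread among injured libraries set the genes apart from each other. The highest of the 6 injured libraries was 11.4 times the lowest for Slc47a1, 8.23 times for Fat2 and 6.36 times for Cpz, and 3.90 times or less for the other 7 genes. Likeness between genes was measured as the mean absolute difference over the 9 libraries of log2 CPM centred on each gene's own mean, where lower is more alike. Among the 10 genes Slc6a13 and Aldh1a2 were closest at 0.261, followed by Slc47a1 and Cpz at 0.273, and Gxylt2 and Ranbp3l were farthest apart at 1.04.

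Among 16901 genes searched outside the 10, the one most like Slc6a13 was Pi16 at 0.126 (then Scara5 at 0.164). Crabp2 was nearest to Col14a1 (0.137) and Stra6l (0.201), Ranbp3l to Col4a6 (0.143) and Dhrs3 (0.151), Aldh1a2 to B3gnt8 (0.157) and Abcc3 (0.158), and Slc13a4 to Dcn (0.169) and Igfbp6 (0.222). Gxylt2 was nearest to Col8a1 (0.177). The nearest genes were Smoc2 (0.255) and Col8a1 (0.392) for Cpz, Smoc2 (0.355) and Sfrp4 (0.390) for Slc47a1, and Eln (0.411) and Atp6v0a4 (0.422) for Fat2. Slc22a6, with few reads, was nearest to Thbd (0.291) and Gdf15 (0.352).

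Genes of leptomeningeal fibroblasts were listed by function, but with earlier results of these data known, and most were also higher in injured cord. Their counts, and those of the marker and retinoic acid lists below, stand beside the shares of all tested genes. These were 20.0% called higher and 16.6% lower in SCI, and 17.4% and 13.5% in HBO. None of the 24 genes was at 0 in any library. Of the 24, 22 rose and 0 fell in SCI against sham, with a median log2 fold change of 2.16, and 22 rose and 0 fell in HBO against sham, also with a median of 2.16. Osr1, a transcription factor of mesenchyme, averaged 9.38 ± 5.24 CPM in HBO (SD, n = 3 each), 7.38 ± 1.33 CPM in SCI and 0.344 ± 0.0711 CPM in sham (SCI over sham 4.38 ± 0.53, SE, adjusted p = 0.000572, edgeR). Lum, a collagen-binding proteoglycan, rose by 3.67 ± 0.52 in SCI (adjusted p = 0.000923), the serum protein gene Itih2 by 2.98 ± 0.38 (0.000626), and the growth factor Igf2 by 2.93 ± 0.27 (0.000516). Foxc1, a forkhead factor needed for meningeal development, rose by 2.16 ± 0.31 (0.00106), Serpinf1 by 2.16 ± 0.25 (0.000516), the laminin gene Lama1 by 2.01 ± 0.16 (0.000507) and Pdgfra, a receptor of fibroblasts and of oligodendrocyte precursors, by 1.09 ± 0.15 (0.000967).

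The exceptions were Zic1 and Ptgds. Zic1 had a log2 fold change of 0.62 ± 0.23 in SCI (adjusted p = 0.0547), and was called without HBO replicates 1, 2 or 3 or without SCI replicate 3. Ptgds, which makes prostaglandin D2 and is also expressed by oligodendrocytes, had −0.66 ± 0.26 (adjusted p = 0.0661), and was called lower without sham replicate 1 or SCI replicate 3. The call of Bmp6 in SCI was lost without any 1 SCI replicate or sham replicate 2, and that of Ngfr without SCI replicate 2 or sham replicate 1 or 2. In HBO, Bmp6, Igfbp2 and Ngfr lost theirs without HBO replicate 2, and Ngfr also without HBO replicate 1 or sham replicate 1 or 2. Leaving out 1 library left 20 to 23 genes called higher in SCI and 19 to 22 in HBO. Of the 10 genes of the arachnoid barrier and dural border, 9 were tested and 7 rose in both comparisons, with medians of 1.98 for SCI and 2.12 for HBO over sham and no change of count when any 1 library was left out. Among these, Klf5 rose by 2.94 ± 0.57 (adjusted p = 0.00369) and Wnt6 by 2.57 ± 0.45 (0.00246) in SCI. Alpl (−0.29 ± 0.19, 0.272) and Cldn11 (0.19 ± 0.17, 0.396) were not called in SCI, and Krt18 was not tested.

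The sum of the 10 genes was set against both fibroblast lists and against Dcn, a proteoglycan gene of fibroblasts. It was 4.97%, 9.40% and 5.46% of the leptomeningeal sum in HBO replicates, 7.23%, 6.71% and 5.42% in SCI replicates and 1.24%, 1.06% and 2.06% in sham replicates, without overlap between injured and sham. The 10 genes were chosen with their levels known, so nothing is read from this separation. In sham replicate 1 that leptomeningeal sum of 574 CPM included 167 CPM of Ptgds and 133 CPM of Itih5. Against Dcn alone the sum of the 10 genes was 38.0%, 59.4% and 35.1% in HBO, 50.3%, 45.4% and 40.7% in SCI and 87.3%, 52.8% and 33.1% in sham, and these ranges overlapped. Against the scar fibroblast list (collagens, Postn, Fn1 and others) it was 1.35%, 1.81% and 0.972% in HBO, 1.04%, 1.31% and 1.58% in SCI and 1.56%, 1.22% and 1.98% in sham, with overlap again. The 12 scar genes all rose in both comparisons, with medians of 3.42 for SCI and 3.27 for HBO over sham, with Timp1 losing its call in HBO without HBO replicate 2. Col3a1, a fibrillar collagen, averaged 2180 ± 925 CPM in HBO, 1910 ± 787 CPM in SCI and 47.0 ± 30.3 CPM in sham.

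**Figure D4:**
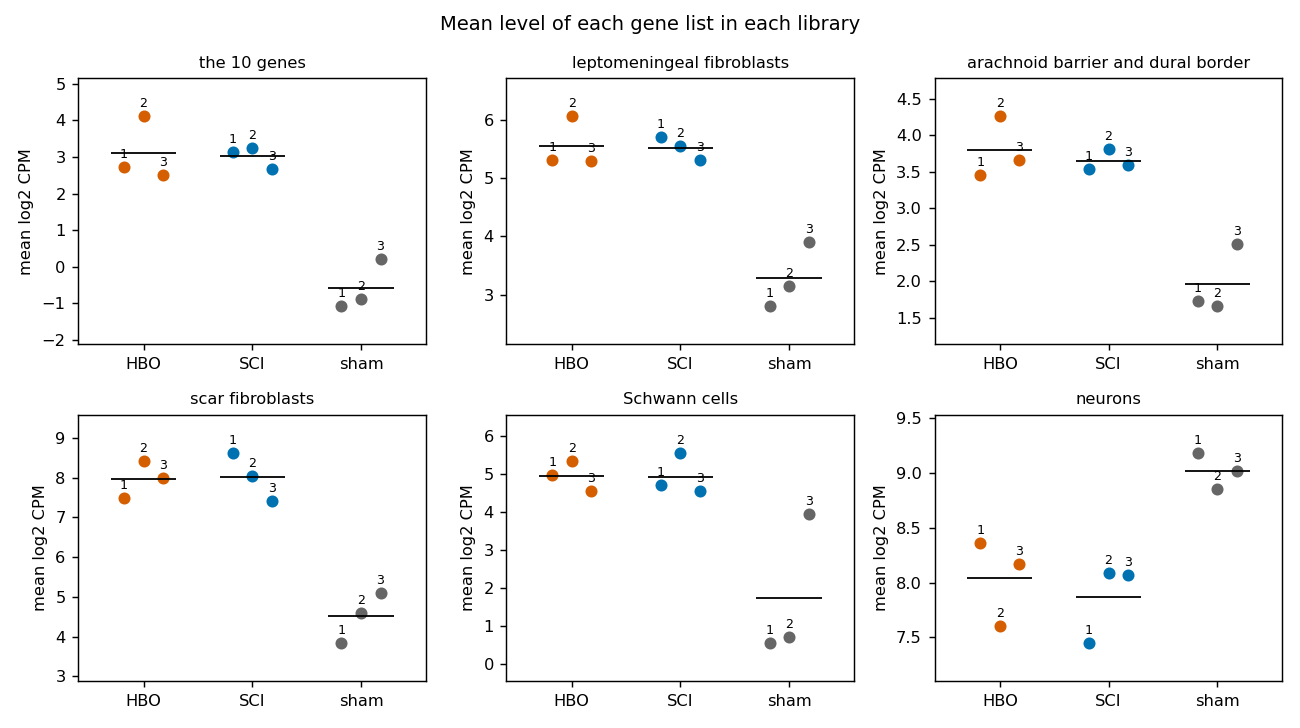
Mean log2 CPM of the 10 genes and of 5 marker lists in each library, with HBO, SCI and sham from left to right, replicate numbers beside the points and bars at group means. The lists of the upper row share a high HBO replicate 2 and a high sham replicate 3, and sham replicate 3 is near the injured libraries for the Schwann list.

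The Schwann cell list was also highest in sham replicate 3 within sham and in replicate 2 within HBO, while not every cell type list was. The 7 Schwann cell genes summed to 726 to 1116 CPM in HBO, 562 to 1265 CPM in SCI and 79.8, 90.1 and 348 CPM in sham replicates 1, 2 and 3, with 1 of the 7 at 0 in sham replicates 1 and 2. Of these 7, 3 rose in SCI and 4 in HBO against sham, while without sham replicate 3 all 7 rose in SCI, and without HBO replicate 1 or 2, SCI replicate 2, or sham replicate 1 or 2 the count for HBO was 2. The leptomeningeal sum was likewise highest in sham replicate 3, at 969 CPM against 574 and 704 CPM, and in HBO replicate 2, at 2581 CPM against 1820 and 1697 CPM. The part of these shifts in the results above was not tested, beyond the values given without each library.

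Markers of cord tissue were present in all libraries. The 7 neuronal genes summed to 2082 to 3642 CPM in HBO, 1880 to 3085 CPM in SCI and 5054 to 6277 CPM in sham, lowest within HBO in replicate 2, and all 7 fell in SCI against sham, with Nefm losing its call without SCI replicate 1 or 2 or sham replicate 1 or 3. The 7 macrophage and microglia genes rose in both comparisons, with sums of 1767 to 3492 CPM in HBO, 2576 to 3380 CPM in SCI and 335 to 534 CPM in sham. The 8 endothelial genes summed to 469 to 537 CPM in HBO, 496 to 589 CPM in SCI and 310 to 380 CPM in sham, and 6 rose in each comparison, or 5 or 6 with 1 library left out. Choroid plexus and ependymal genes, a further site of such transporters, summed to 36.9 to 47.1 CPM in HBO, 42.2 to 50.8 CPM in SCI and 44.8 to 49.2 CPM in sham. Of these 10, 7 were tested and 0 were called in SCI against sham (2 at an unadjusted p under 0.05), 1 being called without SCI replicate 2 or sham replicate 3. The 8 skeletal muscle genes summed to 37.9 to 135 CPM in HBO, 42.1 to 545 CPM in SCI and 56.9 to 85.1 CPM in sham, and 6 rose in SCI against sham, or 0 without SCI replicate 1, and 1 without any 1 sham library. The 6 erythroid genes were also highest in SCI replicate 1, with sums of 243 to 338 CPM in HBO, 330 to 1312 CPM in SCI and 168 to 228 CPM in sham. Of these, 5 rose in SCI against sham and 1 in HBO against sham, a count that was 4 without SCI replicate 1 and 0 without HBO replicate 3, sham replicate 1 or sham replicate 2. The 8 mural cell genes summed to 543 to 619 CPM in HBO, 542 to 768 CPM in SCI and 310 to 361 CPM in sham, and 4 rose in each comparison. SCI replicate 1 was the highest injured library for 1 of the 10 genes, Aldh1a2.

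Retinoic acid genes beside Crabp2 and Aldh1a2 were read from a list of 21, of which 18 were tested. In SCI against sham 13 rose and 1 fell, with a median log2 fold change of 0.99, and in HBO against sham 10 rose and 1 fell, with a median of 0.91. The receptor for retinol uptake Stra6 averaged 31.6 ± 12.9 CPM in HBO (SD, n = 3 each), 35.6 ± 5.17 CPM in SCI and 2.91 ± 1.35 CPM in sham, a log2 fold change of 3.60 ± 0.35 for SCI (SE, adjusted p = 0.000516, edgeR) and 3.43 ± 0.35 for HBO (0.000706).

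Among the enzymes, Rdh10, which oxidises retinol to retinaldehyde, rose by 1.22 ± 0.18 in SCI (adjusted p = 0.00108), and Dhrs3, which reduces retinaldehyde back to retinol, by 2.75 ± 0.32 (0.000542). A further retinaldehyde dehydrogenase, Aldh1a3, had 12.6 ± 5.39 CPM in HBO, 17.2 ± 9.11 CPM in SCI and 1.15 ± 0.403 CPM in sham, and rose by 3.87 ± 0.51 in SCI (0.000710). Cyp26b1, which degrades retinoic acid, rose by 1.57 ± 0.34 in SCI (0.00554). Rdh5, a further retinol dehydrogenase, had a log2 fold change of −0.21 in SCI (0.492).

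Of the carriers and receptors, Fabp5 rose by 1.29 ± 0.17 (adjusted p = 0.000737) and the receptor Rarg by 0.85 ± 0.15 (0.00241) in SCI. Crabp1, the relative of Crabp2, fell by 1.08 ± 0.35 in SCI (0.0365) and by 1.64 ± 0.37 in HBO (0.00926). Its call in SCI was lost without SCI replicate 1 or 3 or sham replicate 1 or 3, and that in HBO was kept without any 1 library but lost without both sham replicate 3 and HBO replicate 2. Leaving out 1 library left 11 to 13 genes of the list called higher in SCI and 8 to 12 in HBO.

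**Figure D5:**
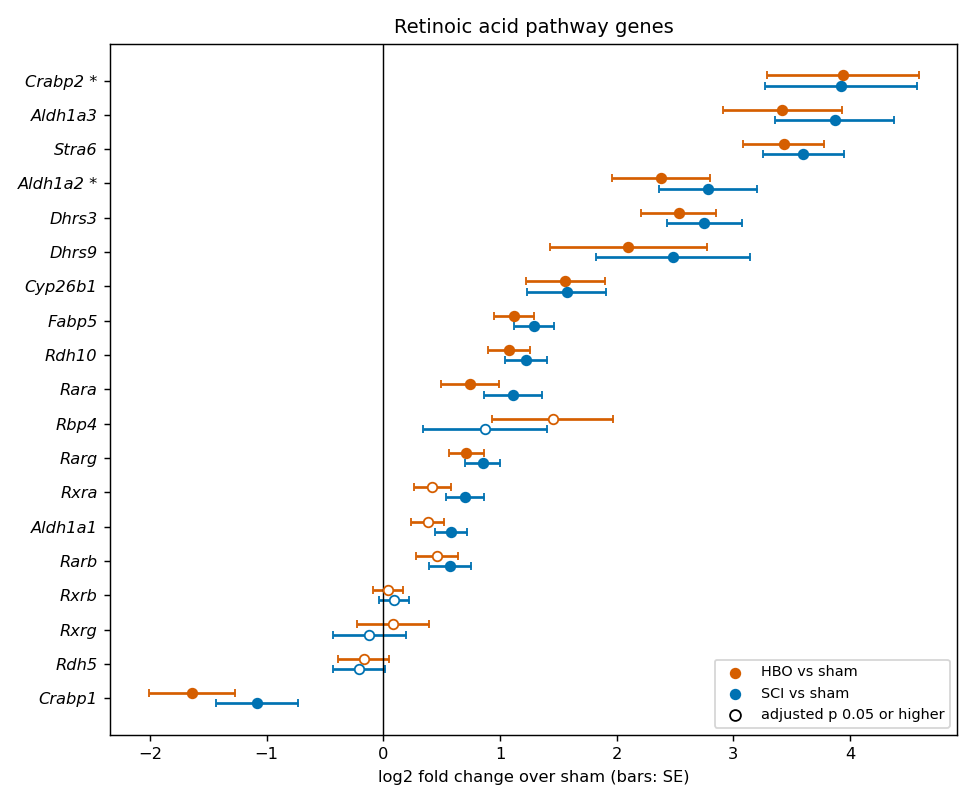
Log2 fold change over sham with its SE for tested retinoic acid genes and for Crabp2 and Aldh1a2 (marked *), HBO above SCI in each pair, with filled points at adjusted p under 0.05. Crabp2, Aldh1a3 and Stra6 are at the top in SCI, and Crabp1 is at the bottom in both comparisons.

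The lists that follow are read against 20.0% of all tested genes called higher and 16.6% lower in SCI, and 17.4% and 13.5% in HBO. Genes listed as relatives of the 4 transporters did not move in 1 direction. Of these, Slc4a10, Slc7a11, Slc26a1, Slc26a2, Slco1a4 and Slco1c1 belong to other transporter families. Of 23 listed, 17 were tested, and 5 rose and 4 fell in SCI against sham (median log2 fold change 0.16), while 4 rose and 3 fell in HBO against sham (median 0.04). Slc6a12, a betaine and GABA transporter close to Slc6a13, averaged 2.69 ± 0.488 CPM in HBO, 3.83 ± 0.532 CPM in SCI and 0.355 ± 0.335 CPM in sham, and rose by 3.34 ± 0.54 in SCI (adjusted p = 0.00172). The GABA transporter Slc6a11 fell by 0.96 ± 0.21 in SCI (0.00616). Slc13a5, a citrate transporter and relative of Slc13a4, fell by 0.89 ± 0.22 in SCI (0.00926), and Slc4a10, a bicarbonate transporter, by 0.73 ± 0.17 (0.00769).

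Slc7a11, the cystine and glutamate exchanger, rose by 1.00 ± 0.18 in SCI (adjusted p = 0.00280). The sulfate transporter Slc26a2 (1.27 ± 0.38, 0.0232) and the taurine transporter Slc6a6 (0.54 ± 0.15, 0.0158) also rose in SCI, but both calls were lost without SCI replicate 1, sham replicate 1 or sham replicate 2, and that of Slc26a2 also without sham replicate 3. The count of risen genes of this transporter list in SCI was 2 without sham replicate 1 or 2 and 3 without SCI replicate 1. Slc22a2 and Slc22a3, relatives of Slc22a6, and Slc47a2, a relative of Slc47a1, had too few reads to be tested in the filtered fit of all 9 libraries. Slc47a2 was tested and called higher in HBO over sham without HBO replicate 1 (2.91, adjusted p = 0.0319, edgeR). Slc22a4, Slc22a5 and Slc22a8, further relatives of Slc22a6, were tested and not called in SCI (adjusted p = 0.363, 0.297 and 0.455, edgeR).

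Lists around the remaining genes are read against the same shares of all genes, and with so few members their counts are not set apart from these. Of 11 enzymes that add sugars to Notch or, for Xylt1 and Xylt2, to proteoglycans, 5 rose and 0 fell in SCI (median 0.30). Xylt1 was 1 of the 5. The count was 3 without SCI replicate 1, SCI replicate 2 or sham replicate 3, and 2 rose in HBO (median 0.26). The largest was Mfng, a Fringe glycosyltransferase, at 1.13 ± 0.18 in SCI (adjusted p = 0.00149), against the 4.97 ± 0.49 of Gxylt2. Of 6 Fat and Dachsous cadherins, 2 rose and 2 fell in SCI (median −0.14) and 1 rose and 1 fell in HBO (median −0.15). Dchs1 rose by 0.76 ± 0.17 (0.00693) and Fat3 fell by 0.70 ± 0.17 (0.0103) in SCI, while the calls of Fat1 and Dchs2 were lost in SCI without SCI replicate 1 or sham replicate 1. In HBO the call of Dchs1 was lost without HBO replicate 2, sham replicate 1 or sham replicate 3, and that of Fat3 without sham replicate 1.

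Of 9 metallocarboxypeptidases, 8 were tested, and 2 rose and 1 fell in SCI (median 0.20), while 3 rose and 1 fell in HBO (median 0.18), where the 1 that fell was lost without sham replicate 1. Cpxm1, which is also secreted, averaged 35.8 ± 20.4 CPM in HBO, 32.4 ± 7.69 CPM in SCI and 6.27 ± 1.77 CPM in sham, and rose by 2.36 ± 0.38 in SCI (adjusted p = 0.00168). Agbl4 fell by 1.10 ± 0.27 in SCI (0.00938). Of 11 BMP Smads, targets and export genes, 4 rose and 1 fell in each comparison, with medians of 0.24 for SCI and 0.17 for HBO over sham. Id3, a target of BMP Smads, rose by 1.36 ± 0.27 (0.00408) and Smad9 fell by 0.72 ± 0.15 (0.00527) in SCI. The count of 4 in SCI was 1 without SCI replicate 1, sham replicate 1 or sham replicate 3 and 2 without SCI replicate 3 or sham replicate 2. In HBO it was 0 without sham replicate 1, 1 without HBO replicate 2 or sham replicate 3, and 2 without HBO replicate 3 or sham replicate 2, and the fall of Smad9 was lost without HBO replicate 2 or sham replicate 1.

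In HBO against SCI, none of the 116 tested genes of these 9 lists was called by edgeR or DESeq2, and 2 had an unadjusted p under 0.05. Over all genes edgeR called 0 and DESeq2 called 26. The median log2 fold change was 0.11 for leptomeningeal genes, −0.12 for scar genes and −0.17 for retinoic acid genes, beside 0.10 for the 10 genes and 0.0 for all genes tested.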

How the data were processed

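Each library had a deposited table with 1 column of read counts and 1 of FPKM per gene. HISAT2 and the build GRCm38 (mm10) are named in the submitters' processing notes, while the sources used here do not name the counting tool, its strand setting or the annotation release. The deposited counts were whole numbers per gene, not normalized, and the deposited FPKM were used as the authors made them, for levels between genes and in 1 alternative. Of the 34745 genes, 24929 had a count in at least 1 library. Of their IDs, 34344 matched GENCODE M21, and 67 that shared a symbol with another ID were left without one.

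Counts of all 9 libraries were fitted with edgeR 4.0.16 in R 4.3.3 (filterByExpr, TMM, quasi-likelihood test, 1 mean per group), with Benjamini-Hochberg adjustment over 17901 genes and a threshold of 0.05. CPM used TMM library sizes, log2 CPM a prior count of 2, and SE came from the log2 fold change and its F statistic. The counting interval is exact for the ratio of 2 Poisson counts, and it and the floor cover counting error only. Alternatives used DESeq2 1.42.0 and limma 3.58.1 on log2(FPKM + 0.1). The fit was tested on simulated counts with 200 changed genes.

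The 10 genes and the 22 lists of related genes were chosen with earlier results of these data known. Named genes were all 10, those with the smallest p in SCI against sham in each list (up to 8 for the leptomeningeal, retinoic acid and transporter lists, up to 4 for the others), and the 2 genes most like each of the 10, and other list members are named where a count needed them. A few genes that the rule names are not reported here.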

Additional observations from a re-analysis of the deposited data

How the results depend on the processing

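Across 16 alternatives (another scaling, no filter on low counts, the 2 compared groups alone, DESeq2, limma on FPKM, a replicate block, each library left out and, chosen after seeing the data, 2 libraries left out), the log2 fold changes of the 10 genes kept their sign in SCI against sham (160 of 160 values) and in HBO against sham (159 of 159), and changed sign in 33 of 160 values of HBO against SCI (−0.90 to 1.80). The 10 genes stayed called against sham, except Fat2 in SCI with limma (adjusted p = 0.0512, and 0.00226 to 0.0450 under the other alternatives) and Slc22a6 in HBO with the 2 groups alone, where it was not tested. The 10 genes were chosen with their values known, and the alternatives reuse the same libraries. Nothing is therefore read from the kept signs and calls against sham. Over all genes, HBO against SCI gave 0 calls by edgeR, 26 by DESeq2, 0 to 4 with 1 library left out and 1 without both sham replicate 3 and HBO replicate 2. Calls in HBO against sham numbered 5530, 3053 to 5777 with 1 library left out and 2519 without both, and in SCI against sham 6545 and 4316 to 6726. The cause of these changes beyond the smaller number of libraries was not tested. Libraries with the same number did not deviate together (correlations of −0.179 to 0.138), and with a replicate block 5592, 0 and 4459 genes were called in SCI against sham, HBO against SCI and HBO against sham, and 10, 0 and 10 of the 10 genes. With the block, 1 BMP Smad gene was called higher in SCI and 2 in HBO (4 without it in each), 1 Fat or Dachsous gene higher and 1 lower in SCI (2 and 2 without it), and Crabp1 was not called lower in SCI, as also with the 2 groups alone. Of 48 listed genes, Dchs2, Fat1, Id1, Smad1, Slc26a2, Slc6a6 and Xylt1 lost their call in SCI under at least 1 alternative and Cpq gained one.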
